A study of Mus musculus with 8 samples.

Results

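Collagens and the other genes of the extracellular matrix and of fibrosis were followed in mouse liver, as 40 genes named by symbol and grouped by what their products do: 5 fibrillar collagens, 4 microfibrillar or fibril-associated collagens, 5 basement membrane genes, 10 glycoproteins, proteoglycans and elastic fibre proteins, 3 crosslinking enzymes, 4 matrix proteases, 3 protease inhibitors, 4 growth factors or receptors and 2 contractile or filament genes. A probe was matched to 39 of the 40 genes, and Col6a3 had none. Of the 39, 32 gave a signal well above background in both mice of some group and were tested among 20164 features. The other 7 (Col5a2, Col15a1, Eln, Thbs2, Lox, Mmp13 and Des) were not tested. Ctgf is listed as Ccn2 in current annotation.

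The livers came from 8 male C57BL/6 mice bought at 5 weeks of age, which ate a normal diet (ND, 4.8% fat, 3.8 kcal per g) or a high-fat diet (HFD, 58% fat, 5.2 kcal per g). The animals were killed after 3 or 9 months, with 2 mice in each of the 4 groups and 1 Agilent 1-colour array per mouse. All were of 1 strain and sex with no transgene or drug named, and the labels used here give no histology, so scar tissue itself was not measured. Fat content and energy density differed together between the diets. Hepatocyte genes marked the tissue on every array, with Alb at 8.59 to 10.50. Every level here is the log2 of the processed signal over its array's 75th percentile, so 0 is the signal at that percentile and a step of 1 is a doubling. Levels serve to compare arrays for 1 gene, not genes with each other.

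The extracellular matrix of the liver is built mainly by hepatic stellate cells and portal fibroblasts, and hepatocytes and endothelial cells add parts of it. Fibrillar collagens form the rope-like fibres of scar tissue, while collagen IV and laminins form the thin sheets on which vessels and ducts rest. Proteases of the Mmp family cut matrix proteins, Timp proteins block those proteases, and TGF-beta and PDGF signals drive fibroblast-like cells to make matrix.

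The arrays differed in the spread of repeated spots and in brightness. The median SD of log2 signal over repeated spots of 1 probe was 0.069 to 0.079 on ND arrays and 0.121 to 0.156 on HFD arrays. The tests used 1 estimate of spread for all groups. Among the 8 arrays the 75th percentile of intensity ran from 482 to 597 with ND and from 185 to 428 with HFD, and the lowest value belonged to mouse 2 of HFD at 9 months, where 40.6% of spots were above background against up to 54.1% elsewhere. Slide 1 carried the 4 ND mice and slide 2 the 4 HFD mice, with the mice of 3 months in the upper row (row 1) and those of 9 months in the lower (row 2). The effect of diet thus cannot be told apart from that of the slide, nor that of duration from the row. All mice were bought at the same age, so duration cannot be told apart from the age of the mice either. In bulk liver RNA, more matrix-producing cells and more RNA per such cell cannot be told apart either.

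Most of the tested matrix genes stood higher on HFD, led by the fibrillar collagens, and none was called lower. At 3 months 9 of the 32 tested genes were called higher on HFD and 0 lower (limma with Benjamini-Hochberg adjusted p under 0.05), while 5.18% of all tested features were called, 1.51% higher and 3.67% lower. At 9 months 12 were called higher and 0 lower, where 8.28% of all features were called, 3.56% higher and 4.73% lower. The 7 genes called at both durations were Col1a1, Col1a2, Col3a1, Col5a1, Col6a1, Col4a1 and Timp1, which is 77.8% of the calls at 3 months and 58.3% of those at 9 months. Averaged over both durations, 20 were called higher and 0 lower, where 22.1% of all features were called, 10.3% higher and 11.8% lower.

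The median log2 change of the 32 genes was 1.00 at 3 months and 1.00 at 9 months, whereas the median of all features was -0.01 and 0.02. In the authors' value table the median of the 32 genes was smaller, 0.64 and 0.54. In 27 of the 32 both HFD arrays at 3 months lay above both ND arrays, an order found in 35.6% of all features, and 0 had the reverse order, found in 35.4%. At 9 months that held for 23 genes, against 28.5% of features, and Ctgf alone had both HFD arrays below both ND arrays, against 26.1%. Over both durations 22 genes had every HFD array above every ND array, against 11.5% of features, and 0 had every HFD array below, against 14%. Fbn1, Thbs1, Mmp12 and Timp1 passed the filter on dim signal through HFD groups only, so a difference in them was built into that filter. Among the 25 genes above background on all arrays 8 were called at 3 months, 9 at 9 months and 15 over both durations. When only the 15932 features with such signal were tested, 5.91%, 9.4% and 23% of them were called. The median change of the 25 genes was 0.95 at 3 months and 0.80 at 9 months. Of the 25, 21 and 17 had both HFD arrays above both ND arrays, against 35.6% and 28.5% of all tested features.

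**Figure D1:**
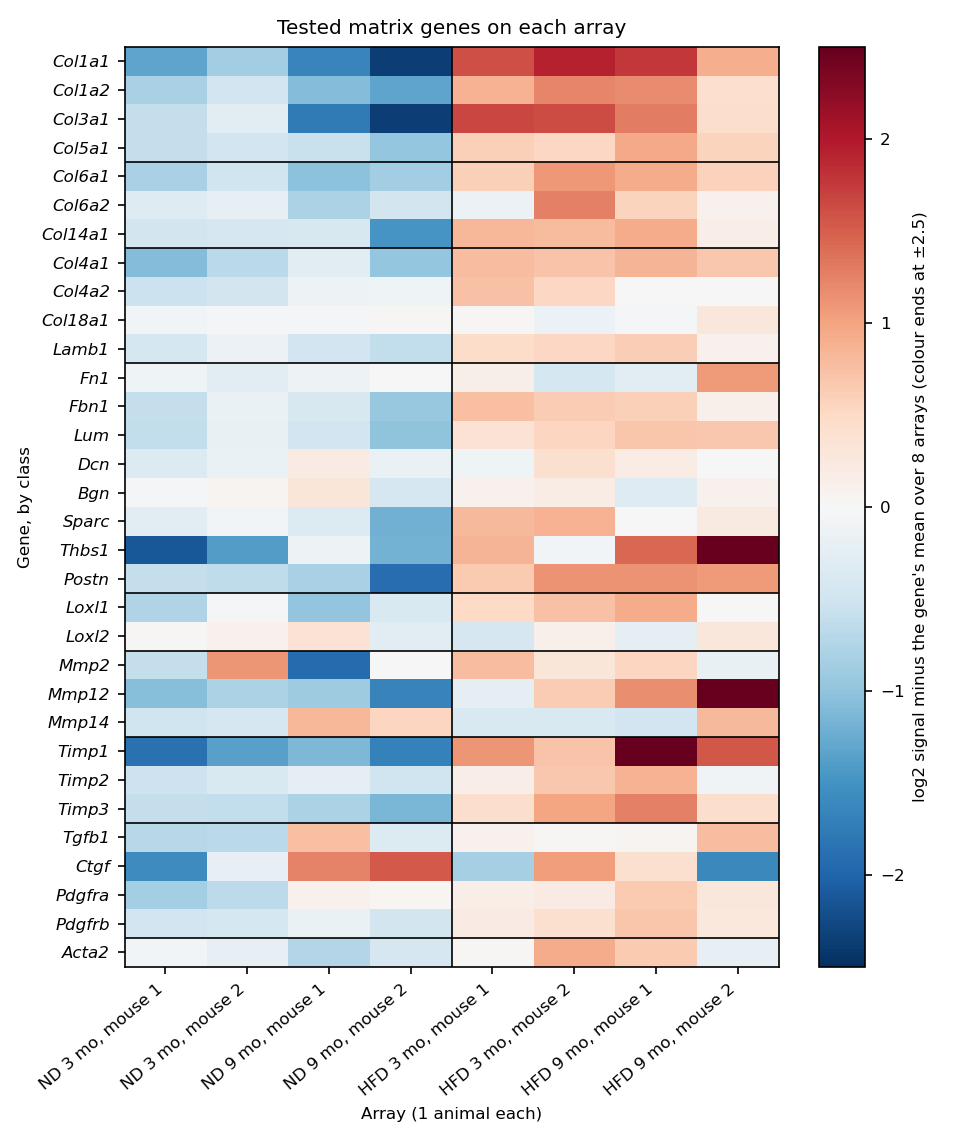
Signal of the 32 tested matrix genes on each of the 8 arrays, as log2 signal minus the gene's own mean over all arrays (red higher, blue lower, colour ending at 2.5 either way), with lines between classes and between diets. The 4 ND columns are blue and the 4 HFD columns red in the rows of Col1a1, Col1a2, Col3a1, Col5a1, Col6a1, Col14a1 and Col4a1, whereas Col18a1, Fn1, Dcn, Bgn, Loxl2, Mmp14 and Ctgf are among those that do not divide by diet.

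The number of calls depended on single animals, among all features as well as among these genes. Leaving out any mouse of 3 months lowered the calls over all features at both durations. Without either ND mouse of 3 months the calls at 3 months were lost over all features, so that loss was not particular to these genes. Leaving out either ND mouse of 9 months lowered them at 9 months. The median change of the 32 genes at 3 months ran from 0.82 to 1.14 with a mouse of 3 months left out. At 9 months it ran from 0.79 to 1.26 with a mouse of 9 months left out. At 3 months 0 genes were called when either ND mouse of 3 months was left out, 1 (Col6a1) without HFD mouse 1 and 1 (Col4a2) without HFD mouse 2, against 7 to 11 when a 9-month array was left out. At 9 months 3 genes (Col1a1, Col3a1 and Postn) were called without ND mouse 2 of 9 months, and 4 (Col1a1, Col3a1, Col6a1 and Timp1) without either ND mouse of 3 months, which enter through the shared estimate of spread. The average over both durations gave 14 to 20 calls with any 1 array left out, where 9.13% to 29.5% of all features were called.

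The promoters of 3 genes called at both durations are printed to show the sequence from which these messages start. They are the 250 bases before the annotated start of each gene in RefSeq, build GRCm38.p6, which holds such a window for 26 of the 40 genes. Col1a2 is at chr6:4505368-4505617, Col3a1 at chr1:45311288-45311537 and Timp1 at chrX:20869916-20870165, all on the plus strand. Capitals mark matches on either strand to TATAAA (the box read by the general transcription machinery), to CCAAT (bound by the factor NF-Y), to GGGCGG (bound by Sp1-type factors) and to CAGAC (whose core Smad proteins bind), so a match on the minus strand reads as its reverse complement.
Col1a2: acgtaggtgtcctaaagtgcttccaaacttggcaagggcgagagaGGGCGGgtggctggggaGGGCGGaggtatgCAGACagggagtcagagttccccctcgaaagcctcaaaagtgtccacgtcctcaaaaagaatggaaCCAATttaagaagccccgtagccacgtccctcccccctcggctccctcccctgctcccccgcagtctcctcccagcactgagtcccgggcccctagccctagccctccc
Col3a1: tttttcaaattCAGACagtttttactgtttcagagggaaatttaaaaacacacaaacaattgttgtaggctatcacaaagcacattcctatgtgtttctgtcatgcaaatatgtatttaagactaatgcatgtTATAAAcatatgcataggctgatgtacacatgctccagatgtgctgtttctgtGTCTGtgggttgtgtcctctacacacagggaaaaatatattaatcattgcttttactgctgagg
Timp1: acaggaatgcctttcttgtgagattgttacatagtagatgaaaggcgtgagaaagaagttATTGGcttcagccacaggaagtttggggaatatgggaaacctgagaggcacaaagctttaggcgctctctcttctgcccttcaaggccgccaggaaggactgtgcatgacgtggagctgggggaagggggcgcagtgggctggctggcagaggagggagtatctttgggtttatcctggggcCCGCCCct
In the Col1a2 window CCAAT began 109 bases before the start, GGGCGG began 205 and 188 bases before it and CAGAC 175 bases before it. The Col3a1 window held TATAAA from 117 bases before the start and CAGAC from 239 bases and, on the minus strand, from 64 bases before it. The Timp1 window held CCAAT from 190 bases and GGGCGG from 8 bases before the start, both on the minus strand. No motif was in all 3 windows. Over all 32851 windows TATAAA was present in 12.4%, CCAAT in 33.8%, GGGCGG in 32.7% and CAGAC in 42.2%. Of the 26 matrix genes with a window, 4, 9, 14 and 13 had the motif in any window of the gene. That count is by gene, so it is not directly comparable with the shares by window. These matches describe letters and are no evidence of binding.

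The fibrillar collagens had the highest class median, 1.89 at 3 months and 2.46 at 9 months, and all 4 tested genes were called higher on HFD at both durations. Col1a1 and Col1a2 encode the chains of type I collagen, the main fibre of scar. Col1a1 read -1.35 and -0.91 on ND at 3 months, -1.70 and -2.40 on ND at 9 months, 1.58 and 1.87 on HFD at 3 months, and 1.72 and 0.86 on HFD at 9 months. The lowest HFD array thus lay above the highest ND array by more than the gap between any 2 mice of a group. Col1a1 was higher on HFD by 2.86 ± 0.38 at 3 months (SE, n = 2 mice per group; limma adjusted p = 0.0189) and by 3.34 ± 0.38 at 9 months (adjusted p = 0.0101), or 7.25-fold and 10.1-fold. With 1 array left out in turn it was called in 4 of 8 fits at 3 months and in 8 of 8 at 9 months, its change running from 2.64 to 3.07 and from 2.91 to 3.77.

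Col1a2 read 1.43 and 1.76 on ND at 3 months, 1.16 and 0.91 on ND at 9 months, 3.11 and 3.45 on HFD at 3 months, and 3.43 and 2.66 on HFD at 9 months. Its groups of different diet did not overlap, and it was higher on HFD by 1.68 ± 0.31 (limma adjusted p = 0.0367) and 2.00 ± 0.31 (adjusted p = 0.0188), calls kept in 2 of 8 and 4 of 8 fits with an array left out. Col3a1 encodes type III collagen, which is laid down with type I in reticular fibres. It read 0.31 and 0.62 on ND at 3 months, -0.86 and -1.44 on ND at 9 months, 2.58 and 2.54 on HFD at 3 months, and 2.18 and 1.34 on HFD at 9 months. Every HFD array lay above every ND array, and within each diet both 9-month arrays lay below both 3-month arrays. The difference between diets was 2.10 ± 0.34 at 3 months (limma adjusted p = 0.0293) and 2.92 ± 0.34 at 9 months (adjusted p = 0.0107), and the latter call held in 8 of 8 fits with an array left out.

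Col5a1, a chain of type V collagen that sits in the core of type I fibres and limits their width, read -2.19 and -2.07 on ND at 3 months, -2.15 and -2.57 on ND at 9 months, -1.0 and -1.07 on HFD at 3 months, and -0.64 and -1.04 on HFD at 9 months. The diets did not overlap, and the gaps of 1.1 ± 0.23 (limma adjusted p = 0.0498) and 1.52 ± 0.23 (adjusted p = 0.0178) were the smallest of the 4 fibrillar genes. The call at 3 months lay at the threshold and was kept in 4 of 9 other settings. Col5a2, the partner chain, was above background on 0 of 8 arrays.

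**Figure D2:**
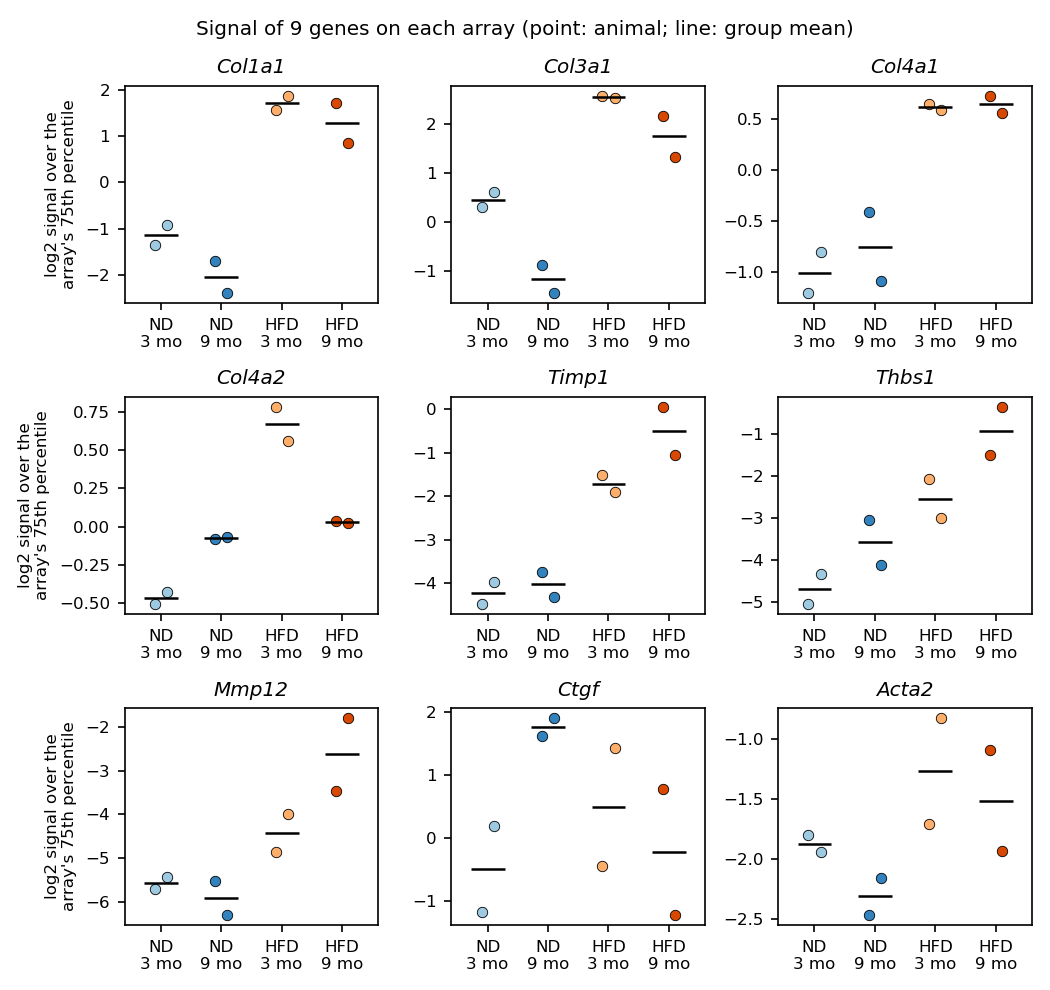
Log2 signal over the array's 75th percentile for 9 genes, with 1 point per mouse and a line at the mean of each group of 2. Col1a1, Col3a1, Col4a1, Timp1 and Thbs1 have every HFD point above every ND point, Col4a2 differs by diet mainly at 3 months, and the diets overlap in Ctgf and Acta2.

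Among the microfibrillar and fibril-associated collagens 1 of 3 tested genes, Col6a1, was called at each duration, and the class medians were 1.26 and 1.49. Collagen VI forms beaded filaments around cells. Col6a1 read -0.16 and 0.14 on ND at 3 months, -0.38 and -0.23 on ND at 9 months, 1.24 and 1.73 on HFD at 3 months, and 1.58 and 1.23 on HFD at 9 months, so the diets were far apart. It was higher on HFD by 1.5 ± 0.25 (limma adjusted p = 0.0307) and 1.71 ± 0.25 (adjusted p = 0.0162). Col6a2, its partner chain, was higher by 0.81 ± 0.46 and 0.96 ± 0.46 without passing the test (adjusted p = 0.3 and 0.222), and HFD mice spread from -3.09 to -1.67. Col14a1, a collagen that decorates fibre surfaces, read 2.09 and 2.14 on ND at 3 months, 2.16 and 1.08 on ND at 9 months, 3.39 and 3.35 on HFD at 3 months, and 3.49 and 2.73 on HFD at 9 months. It passed over both durations together (1.37 ± 0.27, limma adjusted p = 0.0143) but at neither alone. A second kept Col14a1 probe showed smaller differences of 0.52 and 0.14.

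The basement membrane genes divided among themselves. Col4a1 and Col4a2 encode the chains of the collagen IV network, and their annotated starts lie 21 bases apart on opposite strands, as neighbours read in opposite directions. Col4a1 read -1.21 and -0.80 on ND at 3 months, -0.42 and -1.09 on ND at 9 months, 0.64 and 0.59 on HFD at 3 months, and 0.72 and 0.55 on HFD at 9 months. All HFD arrays were alike and above all ND arrays, with differences of 1.62 ± 0.27 (limma adjusted p = 0.0318) and 1.39 ± 0.27 (adjusted p = 0.0349). The call at 9 months held in 1 of 8 fits with an array left out. Col4a2 read -0.51 and -0.42 on ND at 3 months, -0.08 and -0.07 on ND at 9 months, 0.78 and 0.56 on HFD at 3 months, and 0.04 and 0.03 on HFD at 9 months. It was 1.13 ± 0.17 higher on HFD at 3 months (limma adjusted p = 0.0247) and 0.11 ± 0.17 higher at 9 months (adjusted p = 0.719). The 2 effects of diet differed by -1.03 ± 0.24, which had an unadjusted p of 0.0046 and an adjusted p of 0.415, so a difference between durations was not established.

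Lamb1, a laminin chain, read 0.74 and 1.03 on ND at 3 months, 0.70 and 0.57 on ND at 9 months, 1.64 and 1.70 on HFD at 3 months, and 1.80 and 1.29 on HFD at 9 months. Its diets did not overlap, and it passed over both durations together (0.85 ± 0.16, limma adjusted p = 0.0121) but at neither alone (adjusted p = 0.102 and 0.0637). Col18a1, the source of endostatin and a product of hepatocytes, lay between 7.10 and 7.53 on all arrays, and its difference between diets was 0.00 ± 0.19 and 0.13 ± 0.19. Col15a1 had 3 probes, none of which entered the test.

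Of the 8 tested glycoproteins, proteoglycans and elastic fibre genes, 0 were called at 3 months, where 5 had an unadjusted limma p under 0.05, and 3 were called higher at 9 months: Postn, Lum and Thbs1. Postn encodes periostin, a matricellular protein made by activated fibroblasts. It read -0.84 and -0.88 on ND at 3 months, -1.05 and -2.14 on ND at 9 months, 0.42 and 0.88 on HFD at 3 months, and 0.89 and 0.83 on HFD at 9 months. The diets were apart at both times, by 1.51 ± 0.37 (limma adjusted p = 0.0693) and 2.45 ± 0.37 (adjusted p = 0.0179), and ND mouse 2 of 9 months was the lowest array. Without that mouse Postn was still called. Lum encodes lumican, a small proteoglycan that spaces collagen fibres. It read 0.38 and 0.83 on ND at 3 months, 0.53 and 0.00 on ND at 9 months, 1.36 and 1.54 on HFD at 3 months, and 1.69 and 1.68 on HFD at 9 months. Every HFD array lay above every ND array, and Lum was higher on HFD by 0.85 ± 0.25 (limma adjusted p = 0.105) and 1.42 ± 0.25 (adjusted p = 0.0275), a call kept in 3 of 8 fits with an array left out.

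Thbs1 encodes thrombospondin-1, a matricellular protein that can activate latent TGF-beta. It read -5.05 and -4.33 on ND at 3 months, -3.06 and -4.11 on ND at 9 months, -2.08 and -3.00 on HFD at 3 months, and -1.50 and -0.35 on HFD at 9 months. It was not well above background on either ND array at 3 months, where it was at least 2.77-fold higher on HFD (limma adjusted p = 0.0816). A bound of this kind sets the mean of the brighter group against the lowest signal counted as above background on each array of the dimmer one. Where the measured value was higher than that signal, it was used instead. The p beside a bound tests the measured difference. At 9 months 1 of the 2 ND arrays was above background, the measured difference was 2.66 ± 0.57 (adjusted p = 0.0428), and that call held in 1 of 8 fits with an array left out.

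Fbn1 (fibrillin-1, the scaffold of elastic fibres) read -3.90 and -3.46 on ND at 3 months, -3.71 and -4.24 on ND at 9 months, -2.54 and -2.66 on HFD at 3 months, and -2.70 and -3.18 on HFD at 9 months. Sparc, a collagen-binding matricellular protein, read 5.40 and 5.61 on ND at 3 months, 5.34 and 4.48 on ND at 9 months, 6.49 and 6.55 on HFD at 3 months, and 5.66 and 5.90 on HFD at 9 months. Both had every HFD array above every ND array. Fbn1 was above background on 1 of 4 ND arrays and 3 of 4 HFD arrays. At 9 months it was above background on 1 HFD array and on no ND array, so no bound is given. Its measured difference there was 1.04 (limma adjusted p = 0.0751). Its call over both durations together (adjusted p = 0.0106) rests on ND signals mostly below background. Sparc passed over both durations by 0.94 ± 0.20 (limma adjusted p = 0.0187). A second kept Sparc probe went the other way, by -0.54 and -0.38. The remaining 3 did not pass any comparison of diets: Fn1 (plasma and cellular fibronectin) differed by 0.06 ± 0.44 and 0.47 ± 0.44, Dcn (decorin) by 0.40 ± 0.25 and 0.06 ± 0.25, and Bgn (biglycan) by 0.12 ± 0.29 and -0.04 ± 0.29. Fn1 on HFD at 9 months was 7.78 in mouse 1 and 9.11 in mouse 2. Eln was above background on 4 of 8 arrays and Thbs2 on 2, too few in any group for the test.

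**Figure D3:**
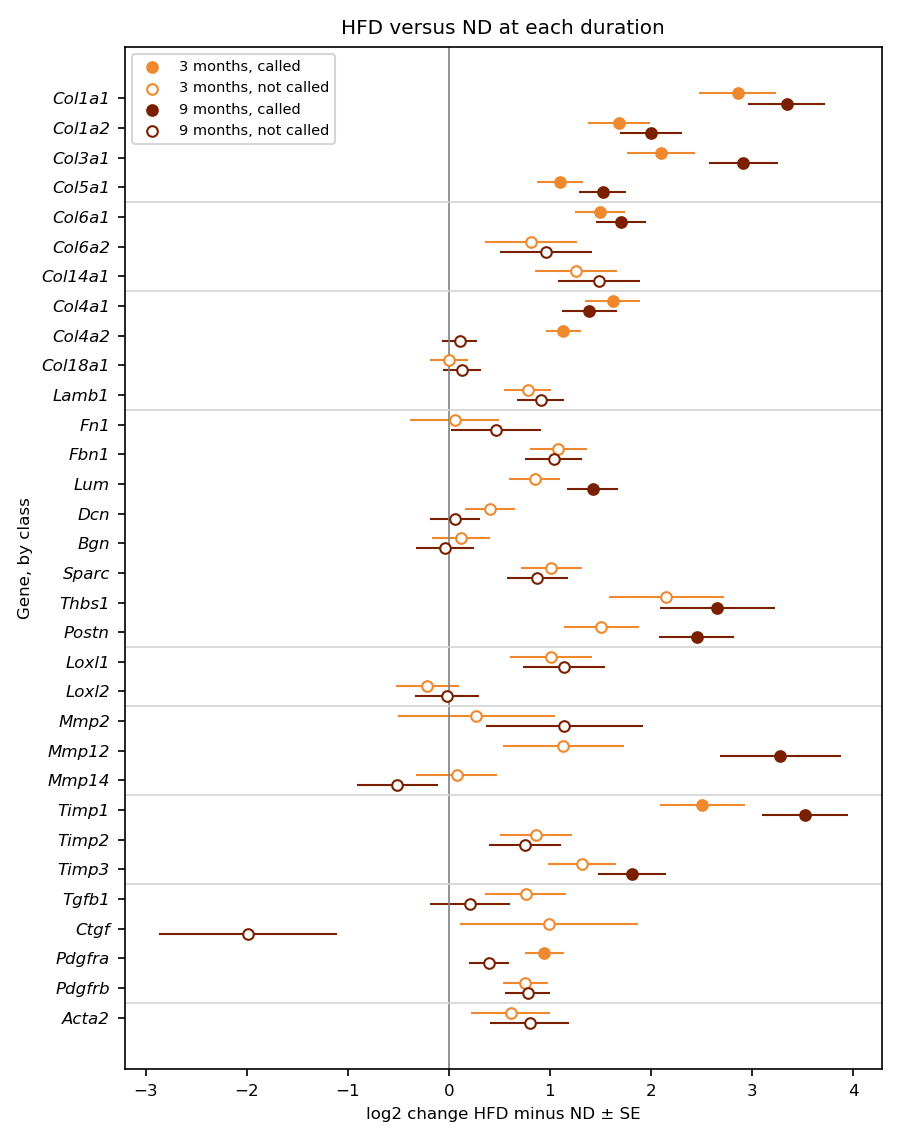
Log2 change on HFD against ND for the 32 tested genes at 3 months (orange) and 9 months (dark red), with bars of 1 SE; filled points passed limma's adjusted p under 0.05, and genes partly below background (such as Timp1, Thbs1 and Mmp12) are drawn at their measured values. Col1a1 (2.86 and 3.34) and Timp1 lie farthest to the right, and Ctgf at 9 months (-1.99) lies farthest to the left with a wide bar.

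The crosslinking enzymes, which tie collagen and elastin chains together, gave no call at either duration, and 1 of the 2 tested genes had an unadjusted limma p under 0.05 at each. Loxl1 read -3.06 and -2.34 on ND at 3 months, -3.28 and -2.69 on ND at 9 months, -1.81 and -1.58 on HFD at 3 months, and -1.39 and -2.31 on HFD at 9 months. The highest ND array and the lowest HFD array were nearly level, and over both durations the gene was 1.07 ± 0.27 higher (limma adjusted p = 0.0298), a call kept in 2 of 8 fits with an array left out. Loxl2 depended on the probe: the probe used gave -0.21 and -0.02, another kept probe 1.16 and 0.11, and one above background on 2 arrays 1.69 and 1.92. Lox was above background on 0 arrays.

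Among the matrix proteases Mmp12, the elastase of macrophages, was the gene called, at 9 months. It read -5.69 and -5.43 on ND at 3 months, -5.53 and -6.30 on ND at 9 months, -4.86 and -4.00 on HFD at 3 months, and -3.47 and -1.80 on HFD at 9 months. It was well above background on the 2 HFD arrays of 9 months and on no other, which makes it at least 2.5-fold higher on HFD at 9 months (limma adjusted p = 0.0286), a call kept in 4 of 8 fits with an array left out. A second Mmp12 probe was above background on 0 arrays. Mmp13, the interstitial collagenase of rodents, was above background on 1 array, mouse 1 of HFD at 9 months, at -2.82, and was not tested. Mmp2, gelatinase A, differed by 0.27 ± 0.78 and 1.14 ± 0.78, with ND mice spread from -5.14 to -2.10. Mmp14, the membrane-bound protease that activates Mmp2, differed by 0.08 ± 0.40 and -0.51 ± 0.40, and its HFD mice of 9 months read -1.23 and 0.05. Without the second of these mice it was called lower on HFD at 9 months, by -1.15.

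All 3 protease inhibitors lay higher on HFD on every array, with class medians of 1.31 and 1.82. Timp1, the inducible inhibitor that rises in injured liver, read -4.48 and -3.97 on ND at 3 months, -3.74 and -4.31 on ND at 9 months, -1.52 and -1.91 on HFD at 3 months, and 0.05 and -1.05 on HFD at 9 months. None of the 4 ND arrays was well above background and all 4 HFD arrays were. It was at least 4.89-fold higher on HFD at 3 months (limma adjusted p = 0.0314) and at least 10.9-fold higher at 9 months (adjusted p = 0.0108). The call at 9 months held in 7 of 8 fits with an array left out and the call at 3 months in 4 of 8.

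Timp3, an inhibitor bound to the matrix, read 0.45 and 0.43 on ND at 3 months, 0.26 and -0.10 on ND at 9 months, 1.48 and 2.04 on HFD at 3 months, and 2.31 and 1.48 on HFD at 9 months. Its diets were well apart, by 1.31 ± 0.34 (limma adjusted p = 0.075) and 1.82 ± 0.34 (adjusted p = 0.0298, kept in 4 of 8 fits with an array left out). Timp2, an inhibitor that also takes part in activating Mmp2, read 2.09 and 2.23 on ND at 3 months, 2.38 and 2.10 on ND at 9 months, 2.76 and 3.28 on HFD at 3 months, and 3.48 and 2.51 on HFD at 9 months. The diets did not overlap. It passed over both durations together by 0.81 ± 0.24 (limma adjusted p = 0.0486) and in 1 of 8 fits with an array left out.

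Of the 4 growth factors and receptors 1 was called at 3 months and 0 at 9 months (limma; 1 with an unadjusted p under 0.05), with class medians of 0.85 and 0.30. Pdgfra, a PDGF receptor of fibroblasts and stellate cells, read -2.00 and -1.80 on ND at 3 months, -1.04 and -1.10 on ND at 9 months, -0.98 and -0.93 on HFD at 3 months, and -0.49 and -0.86 on HFD at 9 months. The ND mice of 9 months came close to the HFD mice of 3 months. The difference between diets was 0.95 ± 0.20 at 3 months (limma adjusted p = 0.0499) and 0.39 ± 0.20 at 9 months (adjusted p = 0.242), and the call at 3 months was kept in 2 of 8 fits with an array left out. Pdgfrb, the PDGF receptor of pericytes and stellate cells, read -0.58 and -0.53 on ND at 3 months, -0.26 and -0.54 on ND at 9 months, 0.11 and 0.30 on HFD at 3 months, and 0.60 and 0.16 on HFD at 9 months. It did not overlap between diets and passed over both durations together (0.77 ± 0.15, limma adjusted p = 0.014).

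Tgfb1, the central profibrotic cytokine, differed by 0.76 ± 0.40 (limma adjusted p = 0.272) and 0.21 ± 0.40 (adjusted p = 0.76). Ctgf, a matricellular protein induced by TGF-beta and by mechanical strain, read -1.17 and 0.19 on ND at 3 months, 1.62 and 1.91 on ND at 9 months, -0.44 and 1.44 on HFD at 3 months, and 0.79 and -1.23 on HFD at 9 months. The 2 mice of a group differed by over 1 in 3 of the 4 groups. The difference between diets was 0.99 ± 0.88 at 3 months (limma adjusted p = 0.505) and -1.99 ± 0.88 at 9 months (adjusted p = 0.197), and neither passed. Acta2, the smooth muscle actin that marks myofibroblasts, ran from -2.47 to -1.80 on ND and from -1.94 to -0.82 on HFD. It differed by 0.61 ± 0.39 (limma adjusted p = 0.357) and 0.80 ± 0.39 (adjusted p = 0.234). Des (desmin) was above background on 0 arrays.

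Fewer of these genes were called between 3 and 9 months, which is also a difference in age, than between the diets. The same held for all features, so it was not particular to these genes. The diets lay on different slides, whereas the 2 durations of a diet shared a slide. From 3 to 9 months 0 of 32 genes were called on ND, where 1.04% of all features were called (0.441% higher and 0.595% lower), and 0 on HFD, where 0.00992% were (0.00496% higher and 0.00496% lower). On each diet 5 genes had an unadjusted limma p under 0.05, and the median change was -0.24 on ND and -0.04 on HFD, against -0.07 and 0.00 for all features. On ND both 9-month arrays were below both 3-month arrays in 10 genes, against 37.1% of features, and above them in 8, against 23.4%. On HFD this held for 4 genes, against 23.3%, and for 5, against 21%.

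The 5 genes on ND were Col3a1 (-1.62 ± 0.34), Pdgfra (0.83 ± 0.20), Mmp14 (1.14 ± 0.40), Ctgf (2.26 ± 0.88) and Col1a1 (-0.92 ± 0.38), with limma adjusted p from 0.0968 to 0.315. On HFD they were Col4a2 (-0.64 ± 0.17), Sparc (-0.74 ± 0.30), and the 3 genes Mmp12, Timp1 and Thbs1, whose 9-month arrays were the highest of all, with adjusted p from 0.207 to 0.32. With the first HFD mouse of 9 months left out, the median change of the 32 genes on HFD was -0.20, and with the second 0.11. The effects of diet at 3 and 9 months differed significantly in 0 of 32 genes and in 0% of all features by limma, and 2 of the genes, Col4a2 and Mmp12, had an unadjusted p under 0.05. These comparisons share arrays with the comparisons of diet.

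**Figure D4:**
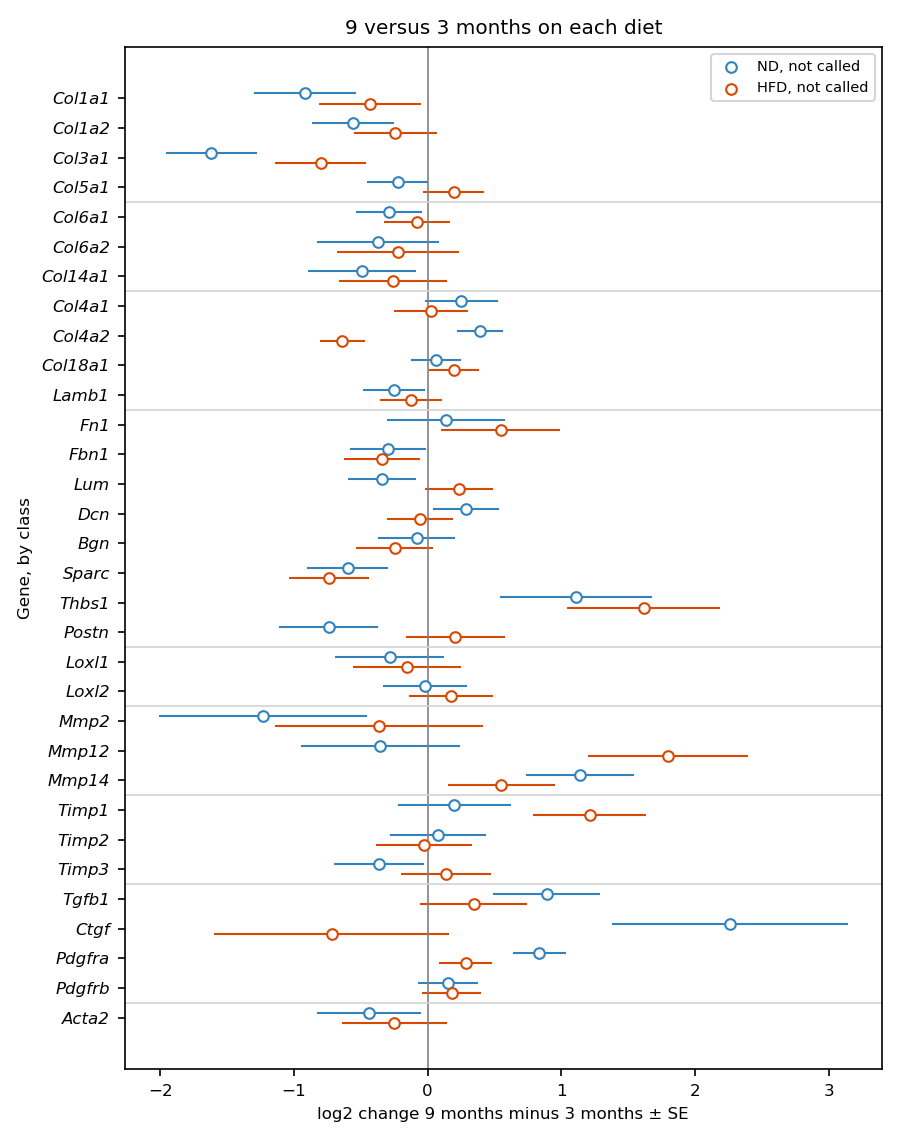
Log2 change from 3 to 9 months for the 32 tested genes on ND (blue) and HFD (red), with bars of 1 SE; open points did not pass limma's adjusted p under 0.05, and no point is filled. Col3a1 on ND (-1.62) lies farthest to the left and Ctgf on ND (2.26) farthest to the right.

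Further genes of matrix biology were read from 6 lists beside the 40, with 92 of 121 genes tested. On HFD 5 were called higher and 1 lower at 3 months, and 10 higher and 2 lower at 9 months, where 5.18% and 8.28% of all features were called in either direction. The medians were 0.39 and 0.43. Over both durations 28 were called higher and 8 lower, where 10.3% of all features were called higher and 11.8% lower. The other fibrillar and fibril-associated collagens had 3 tested genes of 9 and 0 calls (limma; 0 and 1 with an unadjusted p under 0.05). Of 17 other basement membrane genes 0 were called at 3 months (7 with an unadjusted limma p under 0.05) and 3 at 9 months: Nid1, which bridges laminin and collagen IV (1.86 ± 0.33), and the laminin chains Lama4 (1.02 ± 0.20) and Lama1 (1.37 ± 0.28). Changes among the 17 ran from -2.04 to 1.67 at 3 months and from -2.34 to 1.86 at 9 months. Over both durations 6 were called higher and 2 lower.

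Of 19 genes that fold and process collagen, Fkbp10, a collagen chaperone, was called at both durations (1.15 ± 0.20 and 1.27 ± 0.20). Adamts2, which trims procollagen, was called at 3 months (1.29 ± 0.23). Serpinh1, the collagen chaperone Hsp47, read -0.23 and -0.11 on ND at 3 months, -0.38 and -1.46 on ND at 9 months, 0.90 and 1.08 on HFD at 3 months, and 1.16 and 1.09 on HFD at 9 months. All its HFD arrays lay above all its ND arrays, and it was called at 9 months (2.05 ± 0.35, limma adjusted p = 0.0241) with Adamts14 (1.52 ± 0.31). P3h1, a prolyl hydroxylase that modifies collagen, was called lower at 9 months (-1.54 ± 0.32) and was named after its value was seen. Over both durations 7 of the 19 were called higher and 3 lower.

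Of 11 other proteases and inhibitors 0 were called at 3 months (5 with an unadjusted limma p under 0.05) and 4 at 9 months. Among them were Adam8 (3.02 ± 0.39, above background on 5 of 8 arrays), Plaur, the urokinase receptor (1.89 ± 0.33), and Reck, a membrane inhibitor of Mmp proteases (1.1 ± 0.24). Of 21 matricellular and elastic fibre genes Emilin1 and Fbln2 (1.24 ± 0.25) were called at 3 months and 0 at 9 months (8 with an unadjusted limma p under 0.05). Emilin1 was not well above background on ND and was at least 4.20-fold higher on HFD at 3 months. It passed the filter on dim signal through HFD only, so a difference in it was built into that filter. It is among the 5 further genes counted as called higher at 3 months. Of 21 genes of TGF-beta signalling Tgfbi, a matrix protein induced by TGF-beta, was called higher at 3 months (1.26 ± 0.24). Ltbp3, which holds latent TGF-beta in the matrix, was called lower at both (-1.77 ± 0.18 and -2.04 ± 0.18), from 0.27 to 0.49 on ND to -1.75 to -1.44 on HFD.

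Markers of the cells that make matrix, and of other liver cells, were read on the same arrays as the sum of scaled signals over each list. The 13 tested stellate cell markers summed to 39.4 to 48.5 on ND and 70.8 to 88.7 on HFD, without overlap. Of these 0 were called at 3 months (5 with an unadjusted limma p under 0.05), 2 at 9 months, Rgs5 among them, and 7 over both durations, Lrat and Reln among them. Gfap was above background on 0 arrays. The 8 tested portal fibroblast markers summed to 3.90 to 5.20 on ND and 5.45 to 6.75 on HFD, with Fbln2 called at 3 months. Their mean log2 level overlapped between the diets, and at 9 months 5 of the 8 were higher and 3 lower, from -1.51 to 1.68, where Gas1 and Mfap4 were lower on HFD without overlap. Of 7 vascular smooth muscle markers 3 were tested, and Myh11 and Cnn1 were not. The 3 summed to 18.4 to 45.5 on ND and 7.78 to 13.8 on HFD, lower without overlap, whereas their mean log2 level overlapped. At each duration 2 of the 3 were higher on HFD, with medians of 0.17 and 0.84. Tagln, a smooth muscle protein that binds actin, was called lower over both durations (-2.19 ± 0.37), and Mylk, the kinase of myosin light chain, higher at 9 months (1.32 ± 0.24) and over both (0.97 ± 0.21).

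The 8 markers of lipid-associated macrophages summed to 11.6 to 25.2 on ND, 18.0 to 21.8 on HFD at 3 months and 63.8 to 66.0 on HFD at 9 months, and 2 were called at 3 months and 5 at 9 months, Trem2 and Itgax at both. The 11 tested Kupffer cell and macrophage markers summed to 62.8 to 78.7 and 136 to 437 on ND at 3 and 9 months and to 117 to 148 and 151 to 239 on HFD, with 0 calls in either comparison of diets (limma; 7 and 0 with an unadjusted p under 0.05) and medians of 1.64 and 0.12. The 12 endothelial markers summed to 48.5 to 70.1 on ND and 72.4 to 78.6 on HFD, with Lyve1 called at 3 months and 0 called at 9 months. Of the 12, 11 were higher on HFD at 3 months and 9 at 9 months, with changes from -1.17 to 2.28 and from -0.60 to 1.47. Over both durations 3 were called higher and 1 lower. The 12 hepatocyte markers summed to 5509 to 6573 on ND and 3966 to 6415 on HFD. Their mean log2 level was 8.20 to 8.32 on ND and 7.66 to 7.85 on HFD, lower on every HFD array, with medians of -0.52 and -0.44. Tat was called lower at 9 months and 3 (Tat, Ass1 and Hnf4a) over both durations. Mesothelial markers gave 0 calls among 4 tested (limma; 0 with an unadjusted p under 0.05 at either duration). Of the 5 tested cholangiocyte markers, with medians of 0.21 and -0.31, Cftr was called lower at 9 months. Over both durations 1 of the 5 was called higher and 1 lower. Of 6 adipocyte markers only 2 were tested, and Adipoq, Retn, Plin1 and Lep were not. Fabp4, 1 of the 2, was called higher at 9 months. The 3 tested T cell markers summed to 156 to 226 on ND and 23.0 to 54.4 on HFD, with Cd4 called lower at both durations. At 3 months 1 of the 3 went the other way, higher on HFD by 1.04 without overlap. The sums of stellate cell, portal fibroblast and endothelial markers were thus higher on every HFD array, as Col1a1 and the other fibrillar collagens were. The sums of T cell and vascular smooth muscle markers were lower on every HFD array. On each of these lists a marker or more went the other way at 3 or 9 months. The part of these cells in the result was not tested.

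**Figure D5:**
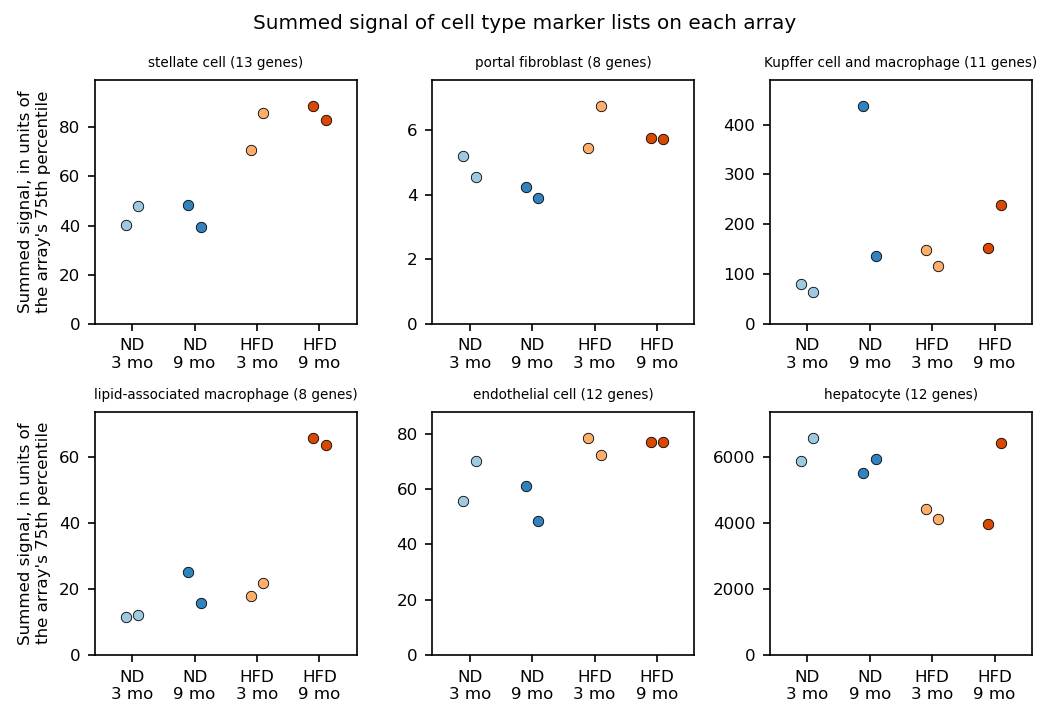
Summed signal, in units of the array's 75th percentile on a linear axis from 0, of 6 lists of cell type markers, with 1 point per mouse. Stellate cell markers are higher on all 4 HFD arrays (70.8 to 88.7 against 39.4 to 48.5), and lipid-associated macrophage markers stand apart on the 2 HFD arrays of 9 months (63.8 to 66.0).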

How the data were processed

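The authors deposited 1 scanner file per mouse, written by Agilent Feature Extraction (version 10.7.1.1) per the submitters' processing notes. Its processed signal is, per the file headers, a background-subtracted intensity that was not scaled between arrays, and its median spot and background signals are uncorrected intensity values. The deposited flags (above background, outlier) are other values of 0 or 1. The value table deposited by the authors holds log2 values in the same order as each array's median signals (Spearman correlation 1), with column medians of 7.14, and its centring is otherwise not given in the sources used here.

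After 3671 control spots and outlier spots were left out, the log2 processed signal (pseudocount 0) had the 75th percentile of its array subtracted and spots of 1 probe were averaged, which gave 55603 of 55681 probes values on all arrays. A probe counted as above background where a share of at least 0.5 of its spots was, and the 25800 probes that met this in both mice of some group were kept. The brightest kept probe stood for a gene. Names came from a RefSeq table of GRCm38.p6 by accession, which matched 26056 probes to 19752 symbols, and probe coordinates were not used. Limma 3.58.1 in R 4.3.3 (lmFit, eBayes) fitted 4 group means over all 8 arrays, leaving 4 residual degrees of freedom (prior 2.33), and a second fit took diet with duration as a covariate. Calls used a Benjamini-Hochberg adjusted p under 0.05 over all 20164 features, of which 12885 had a gene symbol. The labels give the 2 mice of a group as separate animals, so p-values cover the spread between animals and arrays together; precision is limited by how few arrays there are. Alternatives were quantile normalization, normexp (offset 50), the authors' table, other filters on dim probes, the mean of a gene's probes, other moderation, fewer arrays and the mouse number as a block. Figures were drawn with matplotlib 3.10.9 in Python 3.11.15.

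The 40 genes and all lists were chosen with earlier results of these data known. Genes called in a comparison of diets, or measured in 1 group only, are given with every array's value, the others by range, and of each further list up to 3 called genes with the smallest p per comparison are named. Single values of some genes on the pathway and marker lists are not reported here.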

Additional observations from a re-analysis of the deposited data

How the results depend on the processing

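The 9 calls at 3 months became 6 to 8 under quantile normalization, normexp, the authors' value table, probes above background on all arrays, the mean of probes, trended and robust moderation or the mouse number as a block. In these settings 3.98% to 6.29% of all features were called. The 9 calls became 0 with no filter on dim probes, where 0.183% of all features were called. They became 16 with the spread estimated from the 4 arrays compared, where 13.8% of all features were called. The 12 calls at 9 months became 9 to 14 under the first group of settings, where 6.73% to 11.3% of all features were called. They became 3 (Col1a1, Col3a1 and Timp1) with no filter, where 0.739% of all features were called. They became 0 with the spread from the 4 arrays compared, where 0% of all features were called. With no filter the median of all features moved from -0.01 to 0.25 at 3 months and from 0.02 to 0.30 at 9 months, beside 0.88 and 0.96 for the matrix genes. The median change of the 32 genes also depended on the processing. It was 0.64 at 3 months and 0.54 at 9 months in the authors' value table, beside 0.04 and 0.05 for all features. With normexp it was 0.71 and 0.83, beside 0.04 and 0.10, and with quantile normalization 0.99 and 0.99. Over both durations 14 to 21 were called in the settings that kept all 8 arrays, where 6.43% to 23.8% of all features were called. With 1 array left out the calls ranged from 0 to 11 at 3 months, 3 to 12 at 9 months (including Mmp14 lower), 14 to 20 over both, 0 to 1 for duration on ND, 0 to 2 for duration on HFD and 0 to 0 for the difference of the effects. A lone remaining mouse was assumed to vary like the other groups. Calls over all features also changed from fit to fit, so these ranges do not describe the matrix genes alone. Deviations of same-numbered mice correlated from -0.02 to 0.14 between groups, so the numbers were not taken to pair animals. With the replicate block, 6, 10 and 19 genes were called at 3 months, at 9 months and over both, and 0 in the other comparisons. Of all features 3.98%, 6.73% and 20.8% were called at 3 months, at 9 months and over both. No called change turned its sign in any setting run; the cause of the losses was not tested. Signals below background, as in Timp1 and Mmp12 on ND and Thbs1 on ND at 3 months, limit those differences to bounds. For Fbn1 at 9 months signals below background on both diets leave no bound.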
